A study of Mus musculus with 12 samples.

Results

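A panel of 10 transcripts used to mark pericytes, the contractile cells that wrap retinal capillaries, was followed in whole mouse retinas after photoreceptor-specific deletion of Otx2, a homeobox transcription factor of photoreceptors, bipolar cells and the retinal pigment epithelium (RPE). The genes were Pdgfrb, Rgs5, Cspg4, Kcnj8, Abcc9, Notch3, Anpep, Vtn, Ndufa4l2 and Higd1b. They were chosen by name as pericyte genes and matched by Ensembl identifier, and they are 10 of the 54146 genes counted. All 10 passed the filter on low counts, which left 18628 genes for testing, and none of the 120 values (10 genes in 12 libraries) was 0, the lowest being 7 counts.

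The series holds 3 control mice at P30 and conditional knock-out (cKO) mice at P32, P34 and P38, 3 at each age. These ages are 2, 4 and 8 d after 1 tamoxifen injection at P30 induced the knock-out. The paper's methods give 3 mice per condition, while 1 of its figure legends gives 2 P30 controls. All 3 controls were used here. The cKO mice carried a tamoxifen-activated Cre under control of Crx sequences (Crx-CreERT2) and floxed Otx2 alleles on a 129/SV background, which directs recombination to photoreceptors rather than to pericytes. Each mouse gave 1 library of retinal RNA, RPE included, and is 1 replicate. The paper does not state whether 1 or both retinas of a mouse were used, and a retina below stands for 1 library. The control group is labelled as control and with no day after induction, and the alleles it carries and whether it was injected are not given there. The cKO mice were also 2, 4 or 8 d older than the controls, so age, tamoxifen and deletion cannot be told apart in any comparison with P30. By Xist counts, the 3 controls were female, and of the 9 cKO mice 4 were female and 5 male. P32 mouse 4, P34 mice 7 and 8, and P38 mice 10 and 11 were the males.

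Pericytes share a basement membrane with the endothelium and set capillary tone and barrier function. Endothelial cells recruit them by secreting PDGF-B, which binds the receptor encoded by Pdgfrb on the pericyte surface, and Notch signalling from endothelial ligands to Notch3 helps to keep mural cells mature. The retina is known for a dense pericyte cover of its capillaries, and pericyte loss is an early sign of diabetic retinopathy. Pericytes grade into smooth muscle cells of arterioles, so several of these genes mark both. Vtn is also made by photoreceptors.

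Library totals ran from 29701483 to 60145034 counts on genes, so that 3 counts, the limit that a count of 0 allows, correspond to 0.0473 to 0.102 CPM (a gene's share of the scaled library total, in ppm). Otx2 itself lay at 293 to 328 CPM in the controls and 307 to 377 CPM in the cKO mice. The deletion removes 1 coding exon, so this level does not check the labels. Smooth muscle and melanocyte transcripts were high in P30 mice 2 and 3 and low in P30 mouse 1. The smooth muscle myosin heavy chain Myh11, for example, was at 46.7 and 53.2 CPM against 2.65 CPM. Lens transcripts, which are foreign to the retina, summed to between 304 and 50676 CPM, while 10 rod genes summed to between 61495 and 112719 CPM.

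Of the 10 pericyte genes, 7 had an entry in the RefSeq promoter table (GRCm38.p6): Rgs5, Cspg4, Kcnj8, Abcc9, Notch3, Anpep and Vtn. Pdgfrb, Ndufa4l2 and Higd1b had none. The bases before the start of Kcnj8, Abcc9 and Vtn are shown, the first pair because they encode both subunits of 1 channel and lie 16247 bases apart on chromosome 6, and Vtn because its level and its pattern set it apart from the other 9 genes. Capitals mark the motifs searched, on both strands: TAATCC (the core bound by OTX2 and CRX), TGGGAA (the core bound by RBPJ, the DNA partner of cleaved Notch) and TATAAA (the TATA box). In Vtn the capital run holds TATAAA on both strands, overlapping. Bases that the GENCODE M21 annotation already places in the gene were left off (41 in Abcc9, 29 in Vtn).
Kcnj8, chr6:142571615-142571864, minus strand: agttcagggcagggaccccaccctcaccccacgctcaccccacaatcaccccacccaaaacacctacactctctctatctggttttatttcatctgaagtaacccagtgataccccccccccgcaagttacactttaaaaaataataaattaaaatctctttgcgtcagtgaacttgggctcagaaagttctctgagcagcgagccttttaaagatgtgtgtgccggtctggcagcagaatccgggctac
Abcc9, chr6:142702316-142702524, minus strand: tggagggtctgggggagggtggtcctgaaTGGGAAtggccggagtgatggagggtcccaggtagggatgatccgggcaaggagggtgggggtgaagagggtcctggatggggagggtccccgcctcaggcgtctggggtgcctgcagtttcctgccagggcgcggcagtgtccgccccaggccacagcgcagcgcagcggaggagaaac
Vtn, chr11:78498870-78499090, plus strand: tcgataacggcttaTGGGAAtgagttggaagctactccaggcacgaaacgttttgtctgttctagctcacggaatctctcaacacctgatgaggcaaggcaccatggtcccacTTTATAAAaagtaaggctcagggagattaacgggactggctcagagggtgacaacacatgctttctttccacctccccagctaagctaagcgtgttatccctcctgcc

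In the 250 bases before the start, TAATCC was in 0 of the 7 pericyte genes and in 6.25% of all 32851 promoters in the table. TGGGAA was in 2 of the 7, Abcc9 and Vtn, and in 21.6% of all promoters. TATAAA was in 1 of the 7, Vtn, and in 12.4% of all promoters.

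The levels of the 10 genes spanned a wide range. Per exon length, as RPKM (CPM divided by the exon union in kilobases) in the P30 controls, Vtn stood at 484 ± 25.4 (SD, n = 3 here and in each group below), 47.1 times above Rgs5 at 10.3 ± 1.89. Pdgfrb followed at 3.29 ± 0.134 RPKM. Vtn alone made up 90.6% to 95.2% of the summed CPM of the 10 genes in the 12 retinas, so a sum over the list reads mainly Vtn. Ndufa4l2 (1.71 ± 0.287 RPKM) and Higd1b (1.34 ± 0.159 RPKM) came next, and their control mice overlapped. Kcnj8 (0.867 ± 0.181 RPKM), Abcc9 (0.695 ± 0.189 RPKM) and Notch3 (0.450 ± 0.151 RPKM) formed a run in which each neighbouring pair overlapped between mice. The lowest levels per length were those of Cspg4 (0.136 ± 0.0311 RPKM) and Anpep (0.125 ± 0.0418 RPKM), which overlapped as well. The steps from Vtn to Rgs5, from Rgs5 to Pdgfrb, from Pdgfrb to Ndufa4l2, from Higd1b to Kcnj8 and from Notch3 to Cspg4 were larger than the spread between the control mice.

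**Figure D1:**
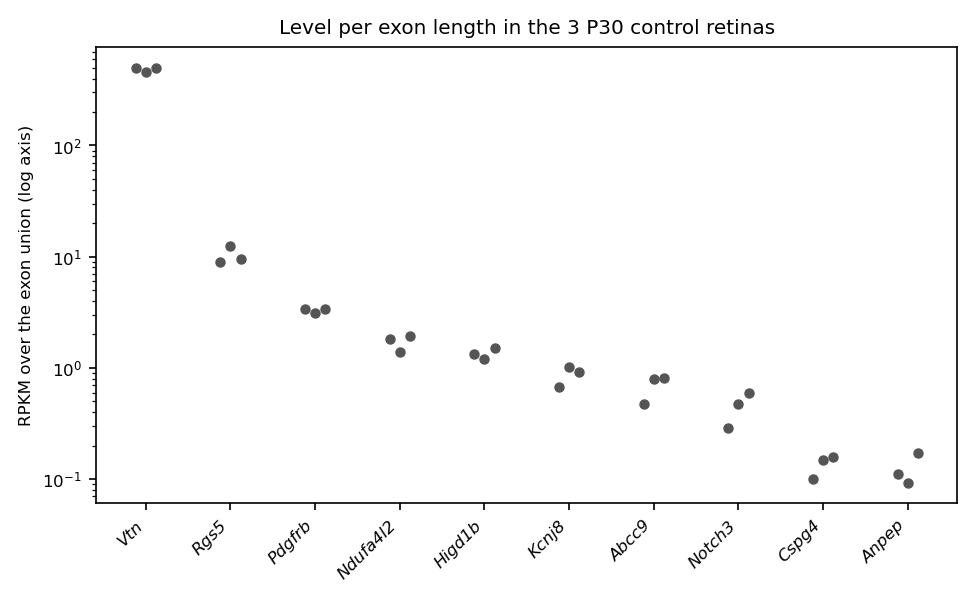
Level of each pericyte gene per exon length (RPKM over the union of its exons, log axis) in the 3 P30 control retinas, 1 point per mouse, ordered by mean. Vtn lies at 484 RPKM on average and Anpep, the lowest, at 0.125 RPKM.

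None of the 10 pericyte genes passed the threshold at any age. A gene passed where its Benjamini-Hochberg adjusted p, from the quasi-likelihood test of edgeR over the 18628 genes, was 0.05 or less and its log2 fold change was 0.5 or more in either direction. Against P30, the count of pericyte genes called was 0 of 10 at P32 (0% of all genes), 0 of 10 at P34 (0.66% of all genes, all lower) and 0 of 10 at P38 (0% of all genes). DESeq2 also called 0 of 10 in each. The groups did not overlap for 0 of 10 genes at P32 (9.65% of all genes), 1 at P34 (20.1% of all genes) and 1 at P38 (16.2% of all genes). At an unadjusted p of at most 0.05 with the same fold limit, 1 of 10 was found at P32, Notch3 (2.9% of all genes), 0 at P34 (6.27% of all genes) and 0 at P38 (3.46% of all genes). A test for any difference over the 4 conditions called 0 of 10 (0.344% of all genes), with adjusted p between 0.394 and 0.940 by edgeR, and 0 of 10 at an unadjusted p of at most 0.05 (17.2% of all genes).

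On the log2 scale the median of the 10 estimates was -0.17, -0.088 and -0.097 at the 3 ages in turn, where the median over every gene tested was -0.0088, -0.0013 and -0.0091. At P32, 6 of the 10 estimates were below 0, at P34 8 and at P38 7. The estimates ran from -0.97 to 0.22 at P32, from -0.60 to 0.32 at P34 and from -0.58 to 0.24 at P38. The 95% intervals lay within a doubling or halving for 5 of 10 genes at P32 and 6 of 10 at P34 and at P38, and for the others a change of that size lay within the interval. In bulk retina, fewer pericytes and less RNA per pericyte cannot be told apart.

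**Figure D2:**
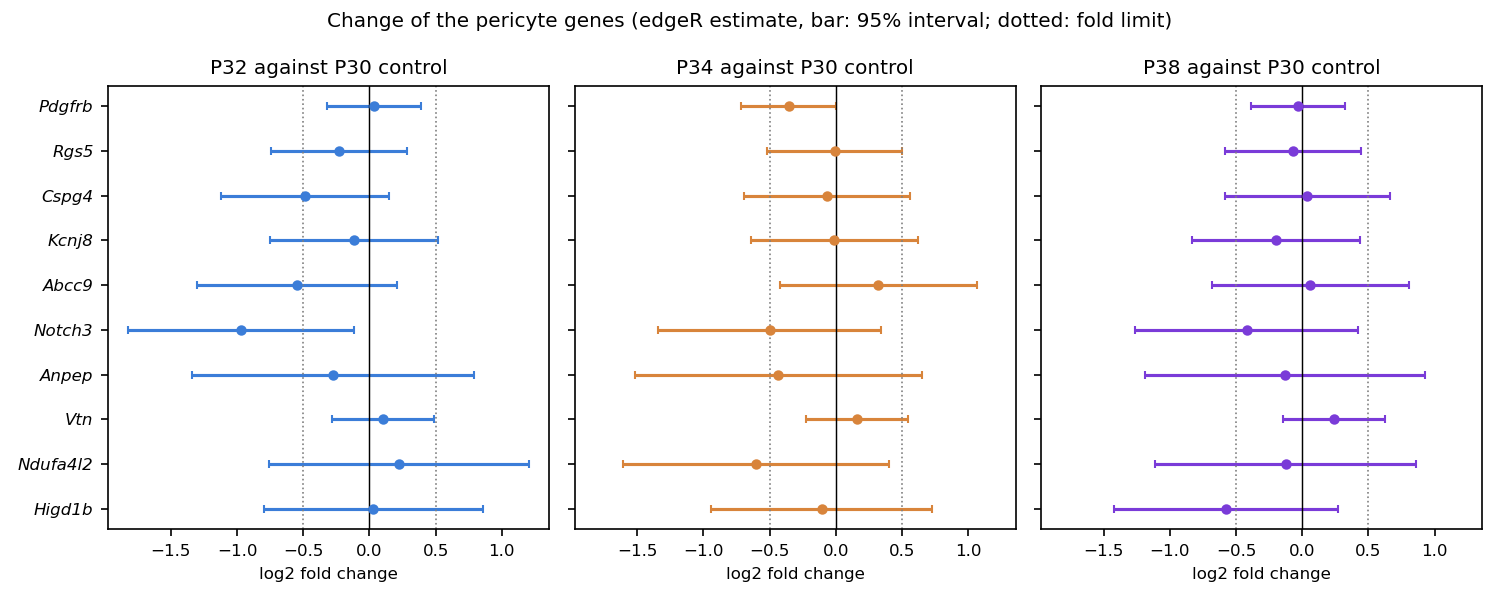
Estimated log2 fold change of each pericyte gene at P32, P34 and P38 against the P30 controls (edgeR, points) with its 95% interval (bars); dotted lines mark the fold limit of 0.5. The interval of Notch3 at P32, from -1.82 to -0.12, is the 1 of 30 that leaves out 0.

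Pdgfrb, the receptor through which PDGF-B recruits and keeps pericytes (ENSMUSG00000024620, on chromosome 18), was at 18.5, 17.2 and 18.5 CPM in the P30 controls. It was at 18.7, 21.6 and 15.2 CPM at P32, at 15.0, 13.9 and 13.3 CPM at P34 and at 18.8, 20.6 and 13.4 CPM at P38. All 3 P34 mice lay below every P30 and every P32 mouse, while P38 mouse 12 was as low as the P34 mice and the other P38 mice lay with the controls or above. The log2 fold change of Pdgfrb at P34 was -0.36 ± 0.16 (SE, 95% interval -0.71 to 0.0023, adjusted p = 0.48 by edgeR). It was the 1 pericyte gene of 10 whose P34 and P30 groups did not overlap, as in 20.1% of all genes. With sex as a covariate the difference of Pdgfrb at P34 was -0.51, with an adjusted p of 0.278 by edgeR.

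Against P32, Pdgfrb at P34 had a log2 fold change of -0.39 ± 0.16 (SE, unadjusted p = 0.0346, adjusted p = 0.157 by edgeR). The groups of Pdgfrb and Abcc9, 2 of the 10 genes, did not overlap between P34 and P32, as was the case for 28.4% of all genes. Of 5 genes for PDGF ligands and the other receptor, 0 of 5 tested passed the threshold at any age against P30. Pdgfra, the other receptor, was at -0.42 (log2, adjusted p = 0.74) and the ligand gene Pdgfa at -0.30 (log2, adjusted p = 0.646) at P34 by edgeR.

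Rgs5, a regulator of G protein signalling that is one of the most abundant pericyte transcripts (ENSMUSG00000026678), was at 40.7, 56.6 and 42.9 CPM at P30. It was at 32.9, 39.5 and 46.9 CPM at P32, at 61.8, 35.2 and 42.2 CPM at P34 and at 49.1, 52.2 and 32.1 CPM at P38. Every age overlapped every other, and the highest and the lowest Rgs5 level at P34 differed by 1.75 times. The log2 fold change of Rgs5 was -0.23 ± 0.23 at P32, while at P34 (-0.010 ± 0.23) and P38 (-0.069 ± 0.23, SE) it lay near 0, with an interval at P34 of -0.52 to 0.50. Of the other R4 RGS genes, 6 of 9 were tested and 0 passed in any comparison with P30. The farthest at P34 were Rgs4 (0.42, adjusted p = 0.498) and Rgs8 (0.30, adjusted p = 0.556 by edgeR).

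Cspg4, which encodes the NG2 proteoglycan of the pericyte surface (ENSMUSG00000032911), was at 1.20, 1.76 and 1.90 CPM at P30. It was at 1.02, 1.21 and 1.21 CPM at P32, at 1.74, 1.15 and 1.73 CPM at P34 and at 1.36, 2.30 and 1.29 CPM at P38. The P32 mice lay at the level of P30 mouse 1 and below the other controls. Cspg4 had a log2 fold change of -0.49 ± 0.29 (SE) at P32, with an adjusted p of 0.698 by edgeR, and -0.070 ± 0.29 at P34. NG2 also marks oligodendrocyte precursors, whose markers Olig1, Olig2 and Gpr17 did not pass the filter on low counts. Sox10 of the same list was at -0.72 at P34 (log2, adjusted p = 0.602 by edgeR).

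Between cKO ages, Cspg4 was the 1 pericyte gene of 10 whose P38 and P32 groups did not overlap, as in 26.4% of all genes. The log2 fold change of Cspg4 between them was 0.53 ± 0.29 (SE), with an adjusted p of 0.288 by edgeR, and without P38 mouse 11 it was 0.21.

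Anpep, a membrane aminopeptidase (CD13) of the pericyte surface (ENSMUSG00000039062), was the lowest of the 10, at 0.457, 0.384 and 0.713 CPM at P30. It was at 0.210, 0.698 and 0.345 CPM at P32, at 0.607, 0.220 and 0.305 CPM at P34 and at 0.509, 0.563 and 0.306 CPM at P38. These levels rest on 7 to 29 counts a library, and 1279 bases of Anpep lie within the gene model Gm44974 on the same strand. The mice of 1 age differed by up to 3.32 times, at P32, and the interval at P34 ran from -1.52 to 0.65 around -0.43 (log2). Of the 5 other membrane aminopeptidase genes, all tested, 0 passed at P32, P34 or P38, with Trhde at 0.34 and Lnpep at 0.26 (log2) at P34.

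Kcnj8 and Abcc9 encode the pore Kir6.1 and the sulfonylurea receptor SUR2 of the vascular ATP-sensitive potassium channel, through which metabolic state sets the pericyte membrane potential. Kcnj8 (ENSMUSG00000030247) was at 1.70, 2.60 and 2.32 CPM at P30 and at 2.67, 1.84 and 1.60 CPM at P32. It was at 2.79, 1.42 and 2.37 CPM at P34 and at 1.77, 2.25 and 1.73 CPM at P38. The ages overlapped throughout, and Kcnj8 had a log2 fold change of -0.12 ± 0.29 at P32, -0.010 ± 0.29 at P34 and -0.20 ± 0.29 (SE) 8 d after induction.

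Abcc9 (ENSMUSG00000030249) was at 3.99, 6.68 and 6.78 CPM at P30 and at 2.58, 4.24 and 5.08 CPM at P32. It was at 10.1, 5.10 and 6.57 CPM at P34 and at 5.12, 8.54 and 4.48 CPM at P38. All 3 P34 mice lay above all 3 P32 mice, although the lowest P34 mouse and the highest P32 mouse stood at nearly the same level, and both ages overlapped the controls. Against P32, Abcc9 at P34 had a log2 fold change of 0.87 ± 0.35 (SE, 95% interval 0.11 to 1.62, unadjusted p = 0.0279, adjusted p = 0.144 by edgeR). Of the 10 pericyte genes, Abcc9 was the 1 that reached an unadjusted p of at most 0.05 with the fold limit in this comparison, against 14.4% of all genes, and 0 passed the threshold (0.242% of all genes). The estimate without P34 mouse 7 was 0.55. Against P30, Abcc9 had log2 fold changes of -0.55 ± 0.35 at P32, 0.32 ± 0.34 at P34 and 0.062 ± 0.34 (SE) at the oldest age.

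Over the 12 retinas, the log2 CPM of the pore and of its receptor had a Pearson's r of 0.34, as a description of libraries that share age groups of 3. The neuronal and beta cell subunit genes of the channel, Kcnj11 and Abcc8, were at -0.13 (adjusted p = 0.884) and -0.094 (adjusted p = 0.882 by edgeR) at P34, and 0 of 2 passed at any age.

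Notch3, the receptor that mural cells use to read endothelial Notch ligands (ENSMUSG00000038146), was at 2.35, 3.80 and 4.78 CPM at P30. It was at 0.870, 2.71 and 1.95 CPM at P32, at 2.98, 2.30 and 2.40 CPM at P34 and at 2.14, 3.80 and 2.17 CPM at P38. The highest control exceeded every cKO mouse and the lowest control did not, and P32 mouse 4 stood below all others. The log2 fold change of Notch3 at P32 was -0.97 ± 0.39 (SE, 95% interval -1.82 to -0.12), with an unadjusted p of 0.029 and an adjusted p of 0.698 by edgeR. Without P32 mouse 4 the estimate was -0.64, and with P30 mouse 1 as the lone control, which is then assumed to vary like the other mice, it was -0.34 (adjusted p = 1 by edgeR).

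Notch3 is overlapped over 21024 bases by the antisense gene Gm17276, and Abcc9 over 11868 bases by 5330439B14Rik. At P34 and P38 the log2 fold change of Notch3 was -0.50 ± 0.39 and -0.42 ± 0.38 (SE). With P30 mouse 1 as the lone control they were 0.13 and 0.21, where leaving out the higher controls raises them by construction. Of 17 Notch ligands, receptors, modulators and targets, all tested, 0 passed at P32, P34 or P38. The farthest at P34 were the ligand gene Dll1 (-0.66, adjusted p = 0.293) and the target gene Hes1 (-0.61, adjusted p = 0.314 by edgeR).

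**Figure D3:**
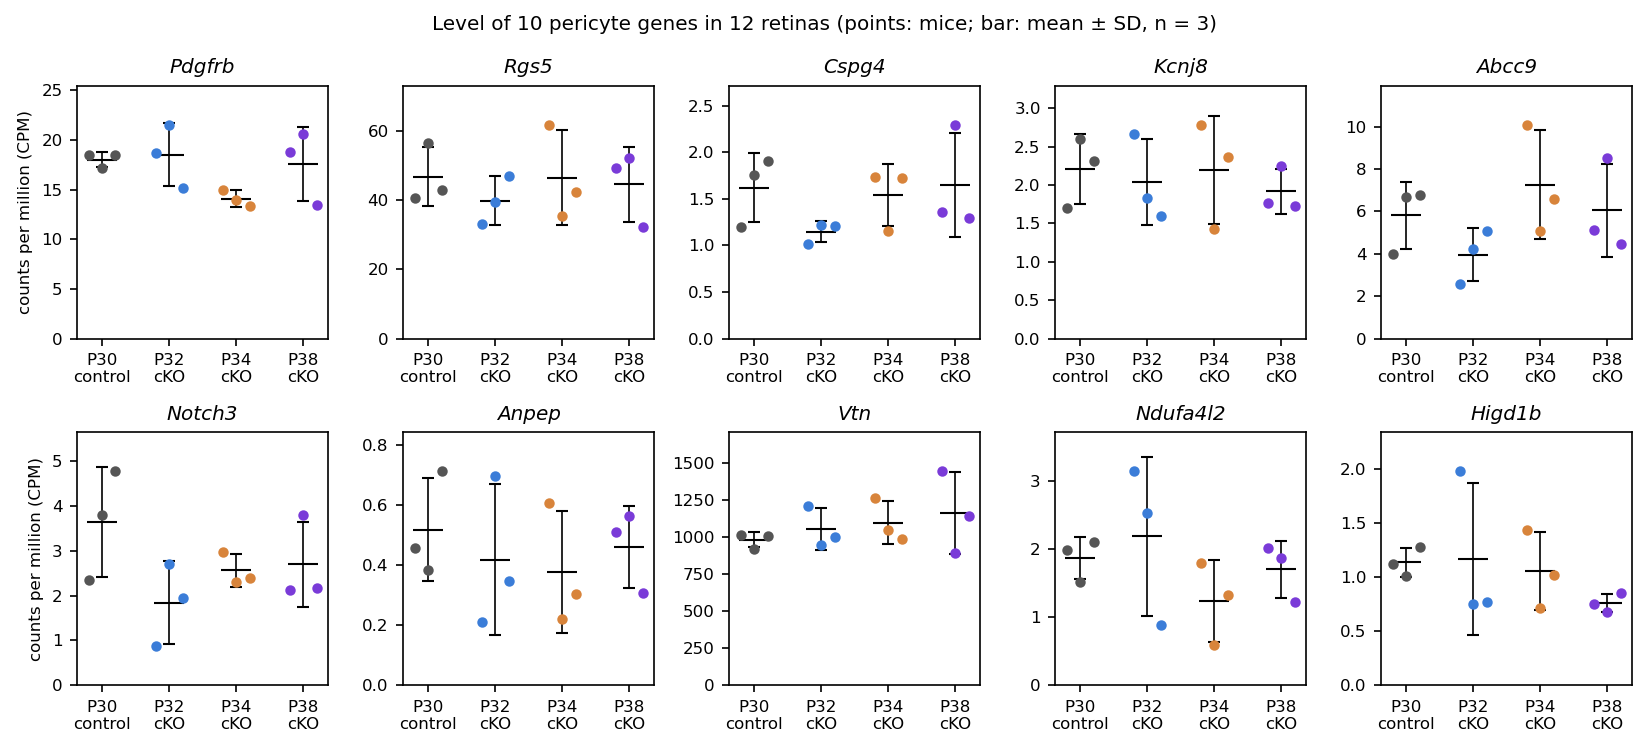
Level in CPM (vertical axes from 0) of the 10 pericyte genes in each of the 12 retinas by condition; points are mice, and bars give the mean ± SD of 3 mice. The P34 mice of Pdgfrb, at 13.3 to 15.0 CPM, lie below the controls at 17.2 to 18.5 CPM, and in most other panels the ages overlap.

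Ndufa4l2 and Higd1b encode small mitochondrial proteins with relatives in respiratory complex assembly, and both are enriched in pericytes. Ndufa4l2 (ENSMUSG00000040280) was at 1.99, 1.51 and 2.11 CPM at P30 and at 3.15, 2.53 and 0.887 CPM at P32. It was at 1.79, 0.588 and 1.32 CPM at P34 and at 2.01, 1.88 and 1.22 CPM at P38. Its spread was the widest of the 10 at P32 and at P34, with a ratio of 3.55 between the P32 mice and 3.05 between the P34 mice. At P30 and P38 other genes of the list had a wider spread. The estimate for Ndufa4l2 was 0.22 ± 0.45 at P32 and -0.60 ± 0.46 at P34 (log2, SE, adjusted p = 0.684 by edgeR), where it was -0.99 without P34 mouse 7 and -0.26 without P34 mouse 8. Ndufa4l2 shares 32 bases at its end with Shmt2 on the other strand.

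Higd1b (ENSMUSG00000020928) was at 1.12, 1.01 and 1.28 CPM at P30 and at 1.98, 0.750 and 0.764 CPM at P32. It was at 1.44, 0.710 and 1.02 CPM at P34 and at 0.752, 0.680 and 0.849 CPM at P38. All 3 P38 mice lay below all 3 controls, which made Higd1b the 1 pericyte gene of 10 whose P38 and P30 groups did not overlap, as in 16.2% of all genes. The log2 fold change of Higd1b at P38 was -0.58 ± 0.39 (SE, 95% interval -1.43 to 0.27), and the adjusted p was 0.847 by edgeR. With sex as a covariate it was -0.87 (adjusted p = 0.503 by edgeR). The level at P38 rests on 25 to 31 counts a library. Of the relatives, 3 of 4 genes were tested and 0 passed, with Higd2a at -0.090 and Higd1a at 0.062 (log2) at P34. Of 12 hypoxia-inducible genes, the class to which Ndufa4l2 belongs, all were tested and 0 passed at P32, P34 or P38, the farthest at P34 being Car9 (-1.85, adjusted p = 0.549) and the glucose transporter gene Slc2a1 (-0.59, adjusted p = 0.162 by edgeR).

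Vtn, which encodes vitronectin, a matrix protein bound by integrins (ENSMUSG00000017344), was at 1016, 923 and 1007 CPM at P30. It was at 1214, 946 and 1001 CPM at P32, at 1263, 1047 and 985 CPM at P34 and at 1447, 893 and 1142 CPM at P38. The means of the 4 ages ran from 982 ± 51.6 CPM at P30 to 1161 ± 277 CPM at P38, and P38 mice held both the highest and the lowest value of all 12. Vtn had a log2 fold change of 0.10 ± 0.18 at P32 and 0.16 ± 0.18 at P34, and of 0.24 ± 0.18 at P38 (SE, 95% interval -0.14 to 0.63, adjusted p = 0.85 by edgeR). Without P38 mouse 10 the last of these was 0.061, and without P38 mouse 11 it was 0.40.

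The profile of Vtn over the mice lay closer to rod genes than to mural cell genes. Its closest gene over the 12 libraries was Pde6g, which encodes the inhibitory subunit of the rod phosphodiesterase (Pearson's r of log2 CPM 0.98), followed by Igbp1 (0.96). With the mean of 10 rod genes its r was 0.69, where the other 9 pericyte genes had r between -0.29 and 0.35. With the mean of the 21 tested of the 22 other pericyte and mural cell genes, r of Vtn was -0.23, where the other 9 had r between 0.37 and 0.76. These are descriptions over 12 libraries that share age groups. The rod genes did not pass at any age, with Pde6a at 0.42 at P34 (log2, adjusted p = 0.514 by edgeR).

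Among themselves the genes fell into a few runs of correlation, named here after the values were seen. Rgs5, Cspg4, Abcc9 and Notch3 had r between 0.56 and 0.87 in their 6 pairs over the 12 libraries, and between 0.51 and 0.87 after each condition's mean was removed. Pdgfrb went with Ndufa4l2 (0.74) and had r of 0.16 with Rgs5, 0.10 with Cspg4 and -0.17 with Abcc9. Kcnj8 went with Higd1b (0.69). Of all 45 pairs, 5 had r of at least 0.7, 14 were below 0, and the median was 0.16. Of the 9 pairs with Vtn, 6 were below 0.

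**Figure D4:**
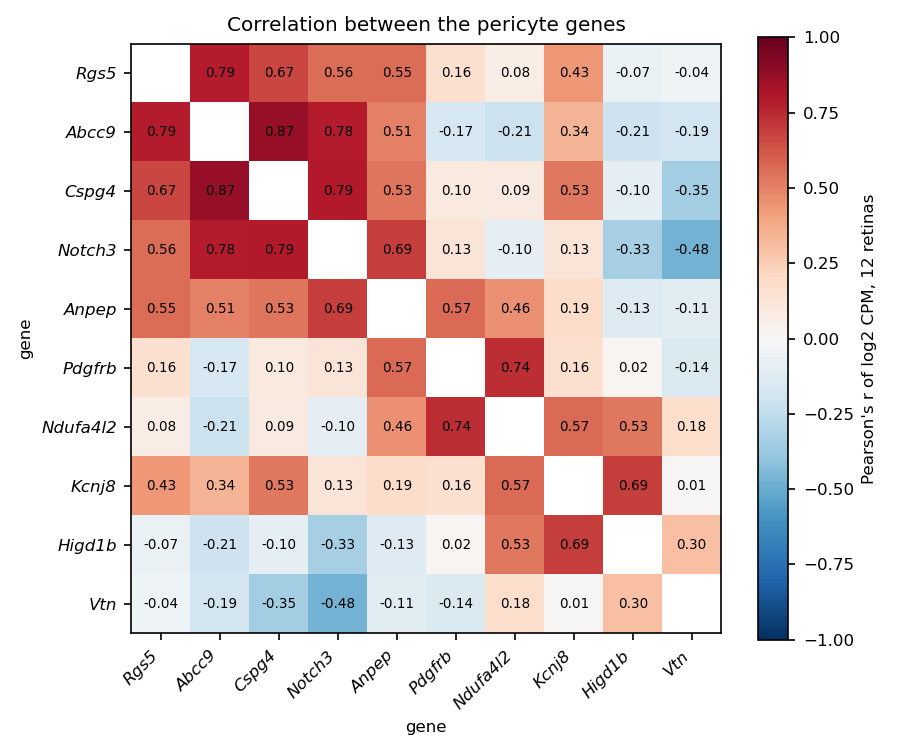
Pearson's r between the log2 CPM of each pair of pericyte genes over the 12 retinas (colour scale from -1 to 1). Rgs5, Abcc9, Cspg4 and Notch3 have r of 0.56 to 0.87, and Vtn has r of 0.30 or less with each other gene.

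The mouse with the highest and the mouse with the lowest levels of the list had the same age. Averaged over the 10 genes as log2 CPM in SD units over the 12 retinas, P34 mouse 7 stood highest at 0.88 and P34 mouse 8 lowest at -0.97. Summed without Vtn, the other 9 genes reached 98.2 CPM in P34 mouse 7 and 60.7 CPM in P34 mouse 8. Rgs5 made up 61.8 and 35.2 CPM of these, so this sum reads mainly Rgs5. The controls summed to 71.9, 91.5 and 81.2 CPM, and the lowest sum was 57.6 CPM in P38 mouse 12. The means of that sum were 81.5 ± 9.79 CPM at P30, 71.0 ± 6.01 at P32, 76.7 ± 19.4 at P34 and 77.3 ± 18.0 at P38.

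Ranked on r over the 12 libraries, the genes most like each pericyte gene were Tor3a (0.95) and Kcnk5 for Pdgfrb, Gm4864 (0.84) and Ifit1bl2 for Rgs5, Myo1c (0.90) and Ubox5 for Cspg4, and Foxc1 (0.87) and Gch1 for Kcnj8. Foxc1 is a forkhead factor gene that belongs to the other mural cell genes. For Abcc9 they were Smad9 (0.94) and Gab2, for Notch3 Efna5 (0.94) and Ano6, and for Anpep Pam (0.90) and App. For Ndufa4l2 they were Arhgdia (0.94) and Cd302, and for Higd1b Mt1 (0.93) and Rpl22l1. With the mean of the 10 genes, the highest r were those of Kcnj11 (0.88), Gm14276, Plin2, Spock1 and Ifit1bl2 (0.83). These are the highest of 18628 values over 12 libraries that share age groups, and they are given as a description.

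Other vascular lists were set beside the pericyte genes. Of 22 other pericyte and mural cell genes, 21 were tested, and 1 passed at P34, Olfml2a, which encodes an olfactomedin-like matrix protein. Olfml2a was at 9.42, 12.9 and 14.7 CPM at P30 and at 1.68, 1.57 and 2.13 CPM at P34, a log2 fold change of -2.78 (adjusted p = 0.0043 by edgeR), and was higher at P38 than at P34 (2.29, adjusted p = 0.0285 by edgeR). With P30 mouse 1 as the lone control Olfml2a did not pass at P34. The median of the 21 genes was -0.083 at P34, and their summed level ran from 535 to 561 CPM at P30 and from 548 to 624 CPM at P34. Of 18 endothelial genes, all tested, 0 passed at P32, P34 or P38, with a median of -0.088 at P34, and their sum ran from 622 to 649 CPM at P30 and from 549 to 634 CPM at P34. The endothelial genes farthest at P34 were Mfsd2a (-0.90, adjusted p = 0.639) and Slc2a1. Of 5 angiopoietin system genes, 0 passed, and Angpt4 (-0.51, adjusted p = 0.722) and Angpt1 (-0.12, adjusted p = 0.916 by edgeR) were the farthest at P34.

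Contractile smooth muscle genes did pass at P34. Of 13, 11 were tested and 4 were lower at P34, namely Acta2, Tagln, Myh11 and Myl9, and 3 of these (all but Acta2) were lower in the 9 cKO mice as 1 group. Acta2, smooth muscle actin, was at 13.5, 77.9 and 95.2 CPM at P30 and at 2.60, 1.94 and 2.51 CPM at P34, a log2 fold change of -4.73 (adjusted p = 0.0352 by edgeR). Tagln was at -3.51, Myh11 at -4.56 and Myl9 at -2.06 at P34 (log2). The sum of the list ran from 191 to 428 CPM at P30, with P30 mouse 1 at the lower end, and from 186 to 233 CPM at P34. The count at P34 changed with the settings. It was 6 without P30 mouse 1, 7 without a filter on low counts and 5 by DESeq2. It was 3 with sex as a covariate, 2 by a robust fit (Myl9 and Tagln) and 1 with only the conditions compared (Acta2). It was 0 without P30 mouse 2 or 3, without P34 mouse 7, 8 or 9, without P38 mouse 10 or 11, or with P30 mouse 1 as the lone control. In the 9 cKO mice, 0 passed with sex as a covariate, without P30 mouse 2 or 3, without P32 mouse 6, without P34 mouse 7, 8 or 9, without P38 mouse 10 or 12, or with that lone control, and 1, Myh11, without P32 mouse 5 or P38 mouse 11.

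P30 mice 2 and 3, which carried that smooth muscle RNA, were also the 2 controls with the higher Rgs5, Cspg4, Kcnj8, Abcc9 and Notch3 levels. With P30 mouse 1 as the lone control, a comparison chosen after the data were seen, 0 of 10 pericyte genes passed. Leaving out the controls with the higher levels raises the estimates of these genes by construction, so their sign in that comparison says nothing about the source of the RNA. The part of smooth muscle RNA in these levels was not tested.

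**Figure D5:**
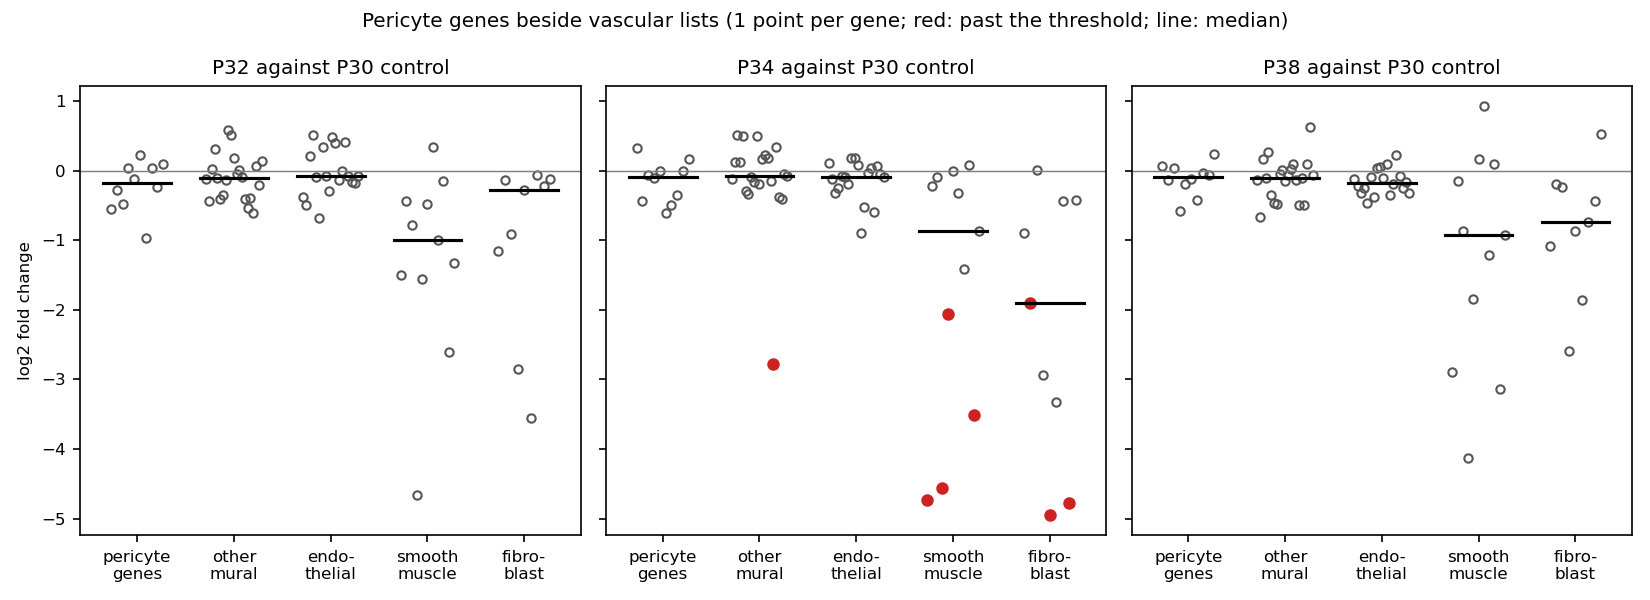
Log2 fold change against P30 of every tested gene in 5 lists at P32, P34 and P38; 1 point per gene, red where past the threshold, and the line is the median of the list. At P34 the pericyte genes lie between -0.60 and 0.32 with 0 past the threshold, and 4 smooth muscle and 3 fibroblast genes lie past it.

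Markers of other cell types were counted at P34 in the same way. Of 10 fibroblast and perivascular matrix genes, 9 were tested and 3 were lower, Col1a2 (-1.90), Ogn (-4.77) and Fbln1 (-4.94, adjusted p = 0.000265 by edgeR), and the list's sum ran from 177 to 222 CPM at P30 and from 31.0 to 57.4 CPM at P34. Of 10 RPE and melanocyte genes, 2 were lower, Tyrp1 (-3.73) and Mlana (-4.42), with sums from 666 to 1320 CPM at P30 and from 547 to 755 CPM at P34. These calls were 0 by a robust fit, without P30 mouse 2 or 3, without P34 mouse 7, 8 or 9, and without P38 mouse 10 or 11, and 6 by DESeq2. Of 8 microglia and macrophage genes, 1 was lower, Mrc1 (-2.69), a marker of perivascular macrophages, while the sum of that list ran from 60.3 to 71.7 CPM at P30 and from 58.3 to 79.1 CPM at P34. Mrc1 did not pass without P30 mouse 2 or 3 or without P34 mouse 7 or 9, and of the fibroblast genes Fbln1 alone passed without P34 mouse 7 or 8. Of these, Fbln1 alone passed with P30 mouse 1 as the lone control.

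Of 10 lens genes 0 passed at P34, with Mip at -7.89 and Bfsp2 at -6.67 (log2) and sums from 588 to 43818 CPM at P30 and from 304 to 839 CPM at P34. Of 8 Müller glia genes 0 passed (Vim -0.98, Apoe -0.60), with sums from 4960 to 5159 CPM at P30 and from 4416 to 5141 CPM at P34. Of 5 astrocyte genes 0 passed (Pdgfra -0.42, Gfap 0.42), with sums from 66.8 to 116 CPM at P30 and from 65.8 to 107 CPM at P34, and the sum of the oligodendrocyte precursor list ran from 19.0 to 37.4 CPM and from 19.3 to 25.9 CPM. The rod genes summed to between 67979 and 74554 CPM at P30 and between 76705 and 100739 CPM at P34. Beside these, Pdgfrb had its highest r with the mean of the oligodendrocyte precursor genes (0.76), of which 2 were tested, and 0.66 with that of the Müller glia genes. Pdgfrb and Ndufa4l2 had r of 0.67 and 0.68 with the mean of the lens genes over the 12 libraries, and 0.55 and 0.59 with that of the fibroblast genes, and the part of RNA from these cells in their levels was not tested. With the mean of the Müller glia genes, r of Ndufa4l2 was 0.91.

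In the remaining comparisons the pericyte genes were not called either. Between P38 and P34, 0 of 10 passed (0.199% of all genes) and 0 reached an unadjusted p of at most 0.05 with the fold limit (3.81% of all genes). Between P38 and P32, 0 of 10 passed (0% of all genes) and 0 reached the unadjusted limit (11.9% of all genes). The 9 cKO mice together against the 3 controls gave 0 of 10 (0.0537% of all genes) and 0 at the unadjusted limit (1.88% of all genes). DESeq2 called 0 of 10 in each of these and in P34 against P32. In the comparison of all 9 cKO mice, 9 of 10 estimates were below 0, from -0.61 ± 0.31 for Notch3 to -0.012 ± 0.33 for Abcc9, and Vtn was at 0.17 ± 0.14 (log2, SE). The groups did not overlap for 0 of 10 genes here (0.601% of all genes) and for 0 of 10 between P38 and P34 (9.95% of all genes).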

How the data were processed

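Retinas of 12 mice (3 per condition, 1 library per mouse) were compared. Per the paper's methods and the submitters' processing notes, the authors made stranded, poly-A selected libraries, read 50 bp single ends, used bcl2fastq 2.17.1.14, aligned these by STAR 2.5.3a against mm10, and ran HTSeq 0.6.1p1 over Ensembl genes. The deposited counts are whole reads per gene, not normalized. The strand option is not given in the sources used here. Tsix, opposite Xist, had 3 to 8 counts in females against 59313 to 114682 for Xist, and antisense genes overlap Abcc9 and Notch3. Rows that name no gene were left out. Of the total over all rows, 6.53% to 13.7% stood under no feature and 0.646% to 0.696% under ambiguous. The row for alignments that were not unique held 23.7% to 32.2%. Symbols came from GENCODE M21 (GRCm38, the files' build), which named 54079 of 54146 identifiers.

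Tests used edgeR 4.0.16 in R 4.3.3 (quasi-likelihood, TMM scaling, filterByExpr, 4 condition means, 12 libraries, 8 residual degrees of freedom before moderation), with Benjamini-Hochberg adjustment over 18628 genes. The 9 cKO mice together were fitted in a design with 2 means. The SE is the log2 fold change divided by the square root of F, and 95% intervals follow from it. CPM uses TMM-scaled totals. RPKM divides by the union of exons in kilobases. Correlations used log2 CPM with a prior count of 2. Scripts were tested on simulated data. Each p-value sets a difference between group means against the spread between mice within groups. Counting error alone sets the limit that 3 counts give. Alternatives were DESeq2 1.42.0, other scalings and filters, a robust fit, fewer libraries, sex as a covariate (female above 1000 Xist counts) and leaving out mice.

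The members and the 11 marker and 9 pathway lists were chosen with earlier results of these data known. Of each other list, genes past the threshold in any comparison are named, or else the 2 with the largest change at P34. Values of 1 pathway list and 1 rod gene are not reported here. For likeness, the 2 genes with the highest r are named for each member, and 5 for the mean. Promoters (250 bases before the start) are RefSeq's, GRCm38.p6.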

Additional observations from a re-analysis of the deposited data

How the results depend on the processing

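The count of pericyte genes past the threshold was 0 of 10 in each of the 7 comparisons under all 144 combinations of comparison and alternative, leaving out each of the 12 mice in turn included. With an unadjusted p it was 1 at P32 (Notch3) and 1 for P34 against P32 (Abcc9). Fold changes of single genes changed sign in 38 of 516 values when 1 mouse was left out and in 18 of 380 under the other alternatives, over 43 fold changes. Of the 27 others, all between cKO ages, 25 of 324 and 2 of 213 values changed sign. With sex as a covariate, Pdgfrb was at -0.037 and Higd1b at -0.19 at P32. On library totals without TMM, which put the median of all genes at -0.096 at P38 and at -0.14 for P38 against P32, Cspg4 was at -0.032 and Abcc9 at -0.0075 at P38. Without P30 mice 2 and 3, Kcnj8 was at 0.26 at P32. At P34, Rgs5 was then at 0.20, Cspg4 at 0.36, Kcnj8 at 0.37 and Notch3 at 0.13. At P38, Rgs5 was at 0.14, Kcnj8 at 0.18, Notch3 at 0.21 and Anpep at 0.026. In the 9 cKO mice, Rgs5 was at 0.10, Cspg4 at 0.27, Kcnj8 at 0.27, Abcc9 at 0.53 and Notch3 at 0.018. In this last setting, leaving out the controls with the higher levels raises the estimates by construction. The cause of the other changes was not tested.

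Leaving out 1 mouse, those of the 43 log2 fold changes that changed sign ran as follows. At P32, Pdgfrb ran from -0.088 to 0.16, Kcnj8 from -0.36 to 0.029, Anpep from -0.86 to 0.029, Vtn from -0.012 to 0.17, Ndufa4l2 from -0.13 to 0.60 and Higd1b from -0.58 to 0.27. At P34, Rgs5 ran from -0.28 to 0.16, Cspg4 from -0.25 to 0.11, Kcnj8 from -0.23 to 0.23, Abcc9 from -0.0020 to 0.52 and Higd1b from -0.41 to 0.12. At P38, Pdgfrb ran from -0.16 to 0.13, Rgs5 from -0.20 to 0.12, Cspg4 from -0.28 to 0.18, Abcc9 from -0.27 to 0.24, Anpep from -0.31 to 0.14 and Ndufa4l2 from -0.26 to 0.058. In the 9 cKO mice, Rgs5 ran from -0.19 to 0.060, Kcnj8 from -0.27 to 0.031 and Abcc9 from -0.22 to 0.10. The direction of Pdgfrb at P34 held throughout, from -0.41 to -0.33.

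The count over all genes depended more on the settings. At P34 it was 123, and 298 without a filter, 369 by DESeq2, 229 with only the conditions compared and 27 without P30 mice 2 and 3, with 43 (P34 mouse 8) to 213 (P32 mouse 6) when 1 mouse was left out. For P34 against P32 it was 45, and 1406 by DESeq2, 656 without a filter and 14 (P34 mouse 8) to 2726 (P32 mouse 6) when 1 mouse was left out. For P38 against P32 it was 0, 932 by DESeq2 and 1946 without P32 mouse 6. For the 9 cKO mice it was 10, and 67 as the average of 3 ages, 46 by DESeq2 and 0 with sex as a covariate. When 1 mouse was left out, that count ran from 0 to 48. Counts of 0 at P32 and at P38 became 25 and 45 by DESeq2 and 23 and 18 without a filter, and 37 for P38 against P34 became 144 and 115. Lengths of the longest transcript moved RPKM most for Cspg4, to 0.199 at P30. No paired analysis was possible because the conditions share no mouse and no replicate number. Of the other lists' calls at P34 that are printed here, those of Olfml2a and Fbln1 held without any 1 mouse. Anpep, at 7 to 29 counts a library, had the widest SE at P32, P34 and P38 against P30.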
